A study of Mus musculus with 24 samples.

Results

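The endoplasmic reticulum chaperones and Xbp1 were taken as 9 genes, Hspa5, Hsp90b1, Calr, Canx, Pdia3, Pdia4, Pdia6, P4hb and Xbp1, and were followed on every probe whose platform annotation gave exactly 1 gene symbol from this set. This selected 17 probes of 15360, and 9 genes of the 6970 that had a single-symbol probe. The first of the deposited tables held 9 of these probes for 5 genes (Hspa5, Hsp90b1, Calr, Canx and Pdia4), and the second table held 8 probes for 5 genes (Pdia3, Pdia6, P4hb, Xbp1 and Canx again). A probe shared by Xbp1 and Ccdc117 in the first table and a probe shared by Hspa5 and Rabepk in the second were left out, because their signal cannot be assigned to a single gene.

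The treated RNA came from cultured mouse embryos kept for 1 h at 37 °C with 40 µM 4-hydroperoxycyclophosphamide (4CP), a form of the alkylating anticancer drug cyclophosphamide that needs no activation by the liver. The reference RNA came from untreated embryos cultured at 37 °C. Both RNAs were hybridised together on each of 24 arrays with 2 channels, and the 2 tables, on different platforms, held 12 arrays each. Not stated in these sources are the strain, the stage and number of embryos behind each RNA, and which dye was which. Of the arrays of a table, 6 carried treated RNA in channel 1 and 6 carried it in channel 2, and they formed 3 dye-swapped slide pairs with 2 arrays per slide. The labels do not say whether a pair is a separate culture, litter or RNA extract. Every p-value therefore rests on spread between pairs, which may be technical. For each probe, limma moderates that spread with the spread of all probes of its table.

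Each value is a log ratio of the channels in an unstated base, taken as 2 or e, and centred on the array median. Before centring those medians spanned -0.305 to 1.12 (first table) and 0.272 to 2.10 (second table). An effect of 0.25 is 1.19-fold in base 2 and 1.28-fold in base e. The treatment effect of a slide pair is the log ratio with treated RNA in channel 1 minus that of the swapped slide, divided by 2, and the dye component is their sum divided by 2. Effects are signed as if channel 1 were the numerator, which would make a positive effect more RNA in treated embryos. The numerator is not stated, so effects are called positive or negative. If the swapped slides had been turned before deposit, the dye component would be the treatment effect instead. Ratios carry no absolute level, so it could not be checked which tissues' marker genes were expressed, and in embryos measured as bulk RNA a change in the number of cells of a type cannot be told apart from a change in RNA per cell.

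The lumen of the endoplasmic reticulum is where secreted and membrane proteins fold. Hspa5 (BiP) and Hsp90b1 (GRP94) are its HSP70 and HSP90 chaperones, calnexin and calreticulin hold glycoproteins by their sugars, and protein disulfide isomerases make and rearrange disulfide bonds. When unfolded protein accumulates, the sensors Ern1 (IRE1), Atf6 and Eif2ak3 (PERK) start the unfolded protein response. Ern1 splices the Xbp1 messenger RNA, and spliced XBP1 and cleaved ATF6 then raise transcription of the chaperones through promoter elements such as the endoplasmic reticulum stress element, ERSE.

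The promoters of the members are shown because several share the ERSE. In the RefSeq windows of GRCm38.p6, which run from 250 bases before to 50 bases after the start of a gene and were found for all 9 genes, the full element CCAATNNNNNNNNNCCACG was searched on both strands. It was present in 5 of 9 member windows and in 39 of 32851 windows of all genes (0.119%). The 5 windows follow 5′ to 3′ on the strand of the gene, with each match in capitals; a match on the opposite strand reads as the reverse complement.
Hspa5: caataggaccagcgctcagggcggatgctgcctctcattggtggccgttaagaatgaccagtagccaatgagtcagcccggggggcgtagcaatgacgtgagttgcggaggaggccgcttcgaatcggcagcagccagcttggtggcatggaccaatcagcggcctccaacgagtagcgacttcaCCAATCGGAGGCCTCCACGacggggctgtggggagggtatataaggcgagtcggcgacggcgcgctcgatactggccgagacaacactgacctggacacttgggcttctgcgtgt
Hsp90b1: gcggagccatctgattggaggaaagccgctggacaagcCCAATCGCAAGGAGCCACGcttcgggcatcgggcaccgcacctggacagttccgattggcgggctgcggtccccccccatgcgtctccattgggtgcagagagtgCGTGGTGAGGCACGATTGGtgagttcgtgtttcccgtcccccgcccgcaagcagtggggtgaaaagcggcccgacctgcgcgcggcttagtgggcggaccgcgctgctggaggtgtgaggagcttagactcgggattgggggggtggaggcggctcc
Calr: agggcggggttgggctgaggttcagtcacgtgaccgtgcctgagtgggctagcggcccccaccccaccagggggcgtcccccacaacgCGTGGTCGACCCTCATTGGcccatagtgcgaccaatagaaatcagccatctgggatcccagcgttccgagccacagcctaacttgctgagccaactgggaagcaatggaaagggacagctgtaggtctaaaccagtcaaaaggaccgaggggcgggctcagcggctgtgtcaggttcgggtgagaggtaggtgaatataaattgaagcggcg
Canx: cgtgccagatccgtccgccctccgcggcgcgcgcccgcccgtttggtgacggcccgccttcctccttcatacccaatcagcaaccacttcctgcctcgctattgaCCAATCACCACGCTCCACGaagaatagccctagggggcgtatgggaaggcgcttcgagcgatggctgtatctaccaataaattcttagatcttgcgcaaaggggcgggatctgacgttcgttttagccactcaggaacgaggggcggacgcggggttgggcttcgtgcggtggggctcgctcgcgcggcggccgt
Pdia6: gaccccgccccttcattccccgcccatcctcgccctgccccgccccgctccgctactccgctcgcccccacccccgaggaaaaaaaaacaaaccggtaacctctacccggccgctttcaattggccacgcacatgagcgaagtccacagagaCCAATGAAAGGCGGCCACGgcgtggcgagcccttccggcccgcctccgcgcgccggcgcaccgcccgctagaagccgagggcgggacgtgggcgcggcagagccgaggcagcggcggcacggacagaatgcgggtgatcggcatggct
They lie at chr2:34771840-34772139 (plus strand) for Hspa5, chr10:86705395-86705694 (minus strand) for Hsp90b1, chr8:84846882-84847181 (minus strand) for Calr, chr11:50325624-50325923 (minus strand) for Canx and chr12:17266339-17266638 (plus strand) for Pdia6. Hsp90b1 held 2 matches, on opposite strands. Shorter motifs were common in all windows. The CCAAT box was in 8 of 9 member windows and in 37.4% of all windows, and CCACG was in 7 of 9 and in 32.8%; both are parts of the ERSE. The motif TGACGTG, known as an XBP1 and ATF6 binding core, was in 1 member window, that of Hspa5, and in 2.01% of all windows. ATTGGNCCACG (ERSE-II) was in 0 of 9 and in 0.0365%. A match describes the letters of a window only.

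No member probe passed the test, and 16 of 17 had a positive mean effect. The limma adjusted p of every first-table member was 0.997, and those of the second table ran from 0.940 to 0.985, with 0 of 9 and 0 of 8 members past 0.05 and a background of 0% of all probes called in each table. In the first table, all 9 of 9 members had a positive mean effect, against 46.2% of all probes, and in the second 7 of 8, against 48.4%. The sign was positive in all 3 pairs for 5 of 9 first-table members, against 11.4% of all probes, and for 7 of 8 second-table members, against 9.84%. An unadjusted limma p under 0.05 was reached by 6 of 9 members in the first table, where 2.34% of all probes (180) reached it. In the second it was reached by 4 of 8, where 5.22% (401) did, and one of these 4 was a negative Canx probe. The 6 were the probes of Hspa5, Hsp90b1 and Calr only, and probes of 1 gene are not separate results. By gene, 3 of 5 in the first table and 4 of 5 in the second were positive in all 3 pairs, against 13.4% and 9.72% of all genes. The median of the member probes' mean effects was 0.155 for the first table and 0.0514 for the second, and that of all probes was -0.0047 and -0.0015. These signs depend on the turn of the swapped slides and, for the smaller effects, on the centring of the arrays: without centring 6 of the 17 probes changed sign.

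**Figure D1:**
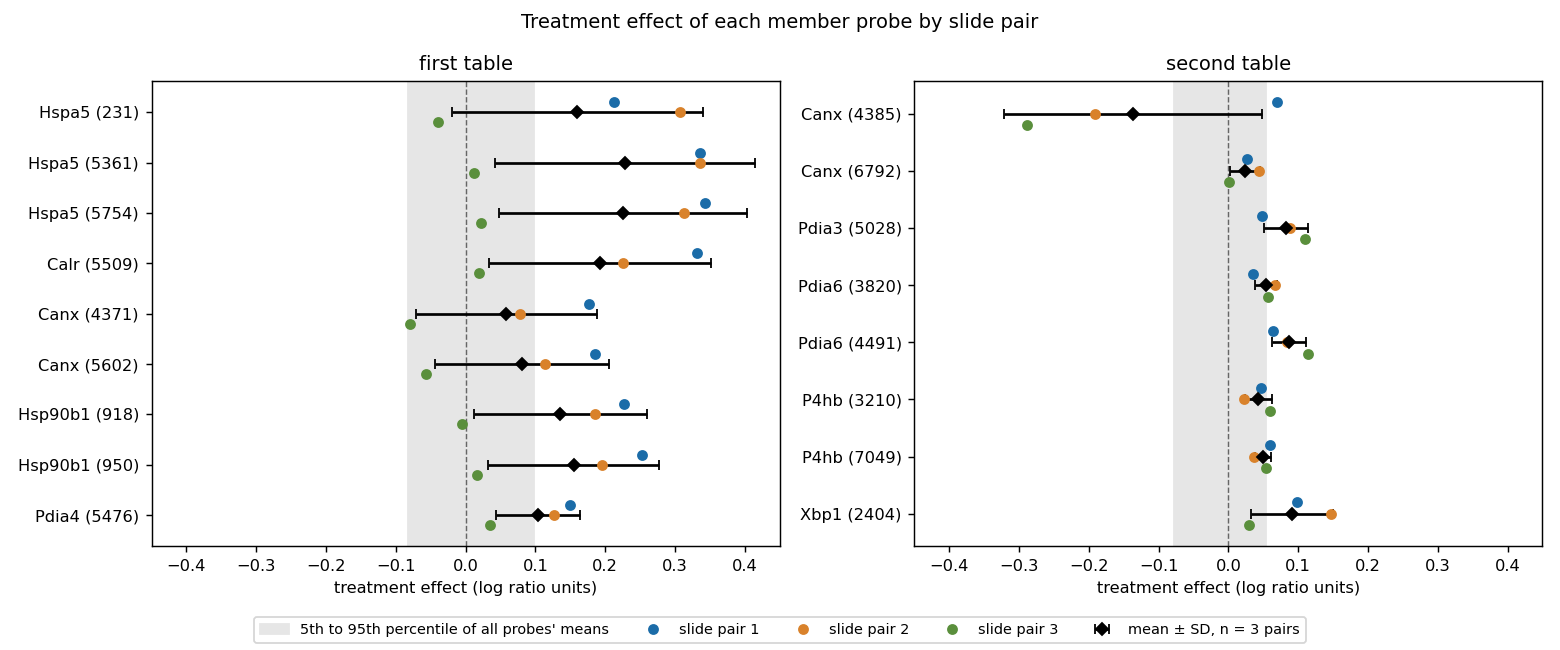
Treatment effect (log ratio units, horizontal axis) of each member probe, with its probe number, in the first table (left) and the second (right). Coloured points are the 3 slide pairs, diamonds and bars the mean ± SD (n = 3 pairs), and the grey band the 5th to 95th percentile of all probes' mean effects. In the first table the member effects of pair 3 lie between -0.0797 (Canx probe 4371) and 0.0352. In the second only the Canx probe 4385 has a negative mean.

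Hspa5, the HSP70 chaperone of the endoplasmic reticulum lumen and a common marker of the unfolded protein response, had 3 probes in the first table. Probe 5361 had centred log ratios of 0.157, 0.459 and -1.17 on the slides with treated RNA in channel 1 of pairs 1, 2 and 3, and of -0.514, -0.214 and -1.20 on their partners with treated RNA in channel 2. Its effects were 0.336, 0.336 and 0.0127, with a mean of 0.228 ± 0.187 (SD, n = 3; 95% interval 0.0686 to 0.388). This and every other 95% interval came from the limma fit, whose variance for a probe is moderated with that of all probes. The intervals therefore do not follow from the printed SDs alone. The first slides were the higher of each pair, by a wide margin in pairs 1 and 2 and by very little in pair 3.

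The other Hspa5 probes gave like values. Probe 5754 had effects of 0.343, 0.313 and 0.0215 and a mean of 0.226 ± 0.177 (SD, n = 3). Probe 231 had effects of 0.213, 0.307 and -0.0396, so it turned negative in pair 3, with a mean of 0.160 ± 0.179. Without pair 3, the Hspa5 probes 5361 and 5754 passed the limma test at 0.336 (adjusted p = 0.0286) and 0.328 (adjusted p = 0.0392). Of all probes 0.312% (24) did so, in a fit with fewer than 3 pairs. Neither probe passed without pair 1 (limma adjusted p = 0.484 and 0.505) or without pair 2 (0.983 and 0.934). Among the fits that left out 1 pair, the calls thus appeared only when the pair with effects near 0 was left out. Probe 231 was not called without pair 3 either, at 0.260 (adjusted p = 0.339).

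Hsp90b1, the HSP90 chaperone that works beside Hspa5, had 2 probes in the first table whose values moved together. Probe 950 had centred log ratios of -0.129, 0.137 and -1.43 with treated RNA in channel 1, and of -0.633, -0.254 and -1.47 with treated RNA in channel 2. Its effects were 0.252, 0.196 and 0.0166, with a mean of 0.155 ± 0.123 (SD, n = 3). Probe 918 had effects of 0.227, 0.185 and -0.0056 and a mean of 0.136 ± 0.124, and it too was far smaller in pair 3.

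Calr, the soluble lectin chaperone, followed the same course. Its only probe, 5509, had centred log ratios of -0.0388, 0.143 and -1.25 with treated RNA in channel 1 and of -0.702, -0.309 and -1.29 with treated RNA in channel 2. The effects were 0.332, 0.226 and 0.0193, with a mean of 0.192 ± 0.159 (SD, n = 3; 95% interval 0.0455 to 0.339). This mean lay between those of the Hspa5 probes.

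Canx, the membrane-bound lectin chaperone, was the only member on both platforms and its 4 probes disagreed. In the first table probe 4371 had effects of 0.177, 0.0782 and -0.0797 (mean 0.0586 ± 0.130, SD, n = 3), and probe 5602 had effects of 0.186, 0.114 and -0.0573 (mean 0.0808 ± 0.125). Both were negative in pair 3, and both 95% intervals included 0. Without pair 1 the mean of probe 4371 was -0.0008.

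In the second table Canx probe 6792 was close to 0, with effects of 0.0264, 0.0443 and 0.0014 and a mean of 0.0240 ± 0.0215 (SD, n = 3). Canx probe 4385 had effects of 0.0694, -0.192 and -0.288, with a mean of -0.137 ± 0.185 (95% interval -0.271 to -0.0023). It was the only member with a negative mean effect. Without pair 1 it passed the limma test at -0.240 (adjusted p = 0.0113), when 0.521% of all probes (40) did. Without pair 2 it was -0.109 (adjusted p = 0.641) and without pair 3 -0.0611 (adjusted p = 0.834), so its size rested on pairs 2 and 3. Its dye component also differed from those of the other members, at 0.454 in pair 3, where the other 7 second-table probes were all negative. The direction of Canx was therefore not settled between probes.

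Every disulfide isomerase probe had a positive effect in all 3 of its pairs, and none passed the test. Pdia4 (ERp72), the only one in the first table, had centred log ratios on probe 5476 of -0.190, 0.173 and -1.05 with treated RNA in channel 1 and of -0.489, -0.0818 and -1.12 with treated RNA in channel 2. Its effects were 0.149, 0.127 and 0.0352, with a mean of 0.104 ± 0.0605 (SD, n = 3). It was positive in all 3 pairs, and its 95% interval ran from -0.0087 to 0.217.

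Pdia3 (ERp57), the isomerase that partners calnexin and calreticulin, had log ratios on its second-table probe 5028 of -1.06, 0.0135 and -1.31 with treated RNA in channel 1 and of -1.16, -0.164 and -1.54 with treated RNA in channel 2. The first slide was the higher in each pair, and the effects were 0.0476, 0.0886 and 0.110, with a mean of 0.0822 ± 0.0319 (SD, n = 3; 95% interval 0.0132 to 0.151). Here pair 3 had the highest value, unlike pair 3 of the first table, and slide pairs of the same number in the tables need not share embryos.

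Pdia6 (P5), an isomerase that acts on Hspa5 clients, had 2 probes that gave the same direction. Probe 4491 had effects of 0.0637, 0.0835 and 0.113 (mean 0.0868 ± 0.0250, SD, n = 3), and probe 3820 had effects of 0.0359, 0.0668 and 0.0571 (mean 0.0533 ± 0.0158). P4hb (PDI), the classical isomerase and a subunit of prolyl 4-hydroxylase, had means of 0.0428 ± 0.0192 on probe 3210 and 0.0495 ± 0.0119 on probe 7049, with effects between 0.0218 and 0.0594. The 95% interval of Pdia6 probe 4491 ran from 0.0190 to 0.155, while that of Pdia6 probe 3820 (-0.0135 to 0.120) and those of P4hb (-0.0243 to 0.110 and -0.0169 to 0.116) included 0.

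Xbp1, the transcription factor of the response, had its only single-symbol probe, 2404, in the second table. Its centred log ratios were -0.0916, 0.188 and -0.428 with treated RNA in channel 1 and -0.288, -0.105 and -0.488 with treated RNA in channel 2. The effects were 0.0982, 0.147 and 0.0296, with a mean of 0.0915 ± 0.0588 (SD, n = 3; 95% interval 0.0157 to 0.167). The first slide was higher in every pair, and the spread between pairs was of the same order as the mean. Nothing says whether this probe can tell spliced from unspliced Xbp1, and splicing was not measured.

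**Figure D2:**
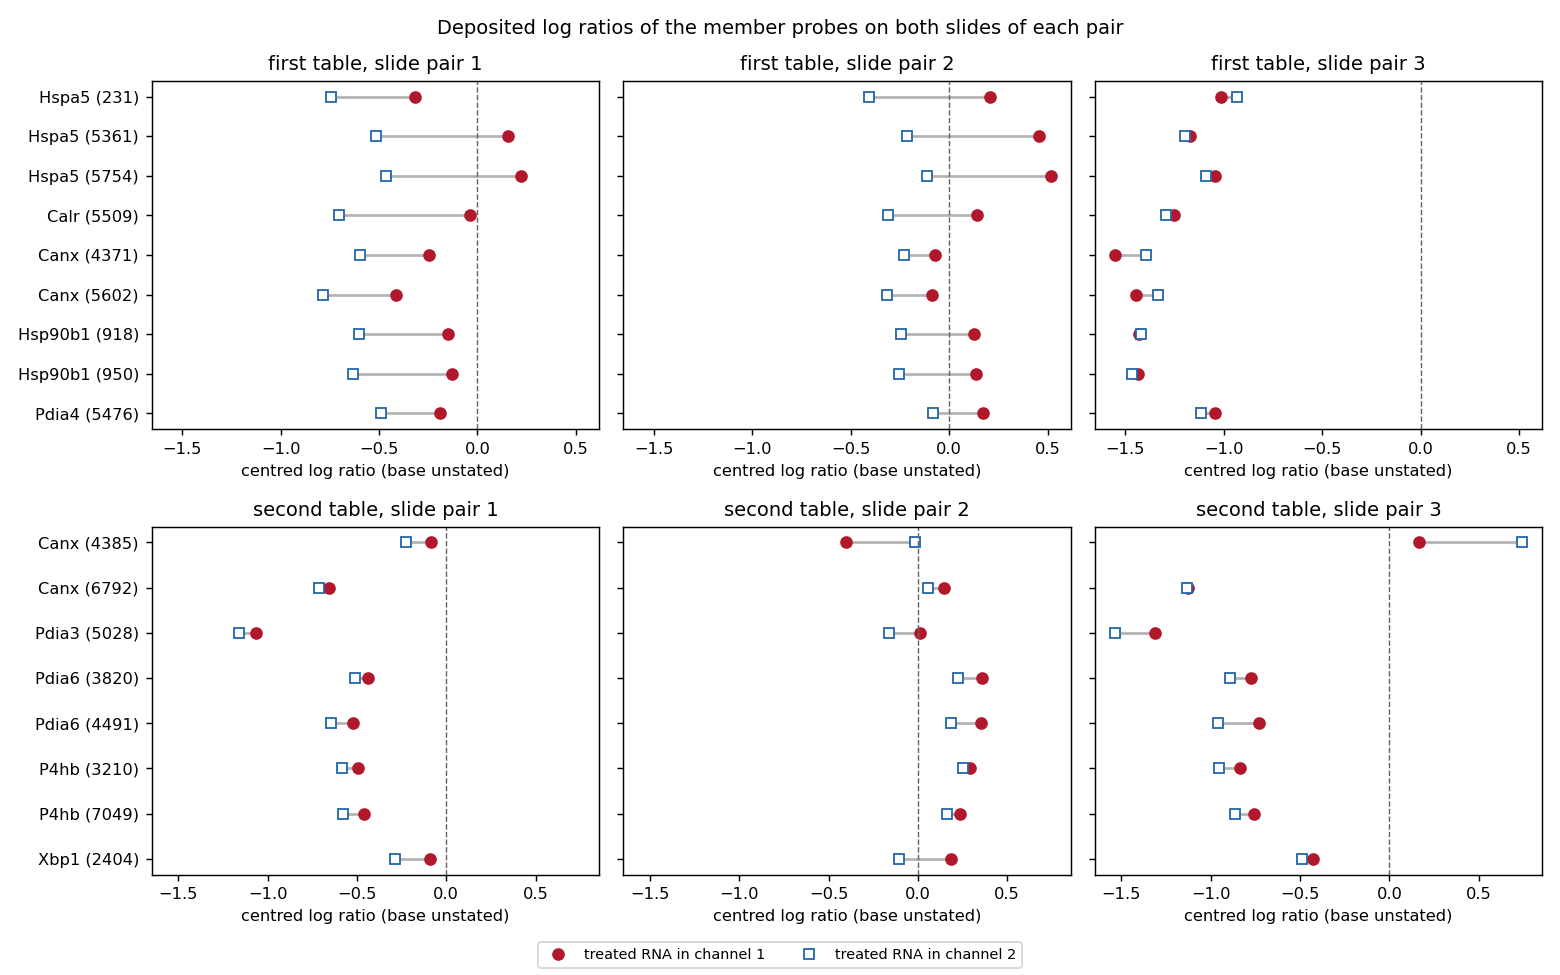
Centred log ratios (horizontal axis, base unstated) of each member probe on the slide with treated RNA in channel 1 (filled circles) and in channel 2 (open squares), joined by a line, for the 3 slide pairs of the first table (top) and of the second (bottom). In pair 3 of the first table the 2 slides lie close together, with all values near -1 or below.

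Member effects differed between the pairs. In the first table the median member effect was 0.227, 0.196 and 0.0127 in pairs 1, 2 and 3, with 9, 9 and 5 of 9 probes positive, while the share of all probes that were positive was 58.6%, 51.2% and 40.6%. In the second table the median was 0.0534, 0.0556 and 0.0552, with 8, 7 and 7 of 8 positive, against 46.3%, 49.3% and 47.4% of all probes. The first-table members had higher medians in pairs 1 and 2 than in pair 3. In the second table the 3 medians were close, while single probes differed between pairs, with lowest values of 0.0264, -0.192 and -0.288, the last 2 from Canx probe 4385. The tables hold different probes and platforms, so the sizes cannot be compared directly between them.

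The dye component of the members was negative on the median in 5 of the 6 pairs. Its member median was -0.377, -0.0597 and -1.27 in the first table, where the SD of all probes was 0.272, 0.271 and 0.679, and -0.528, 0.150 and -0.840 in the second (SD of all probes 0.355, 0.241 and 0.566). Over all 7680 probes the effect and the dye component of the first table correlated at r = -0.456, 0.374 and 0.154 in pairs 1, 2 and 3, and at 0.104, 0.118 and 0.143 in the second, values that share the same slides. After the effect's trend on the dye component was removed, the first-table member medians were 0.132, 0.209 and 0.0468, and the second-table ones 0.0737, 0.0559 and 0.0645; 6 of 9 and 7 of 8 members were positive in all 3 pairs, against 11.0% and 11.5% of all probes. The part of dye or signal strength in the effects beyond this was not tested. Using only slides with treated RNA in channel 2, 7 of 9 first-table members passed the limma test, when 8.70% of all probes (668) did. The member median was then 0.740. With treated RNA in channel 1 only, 0 of 9 first-table members passed, when 174 of all probes did, and the member median was -0.384. The slides of a single orientation thus gave opposite signs.

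**Figure D3:**
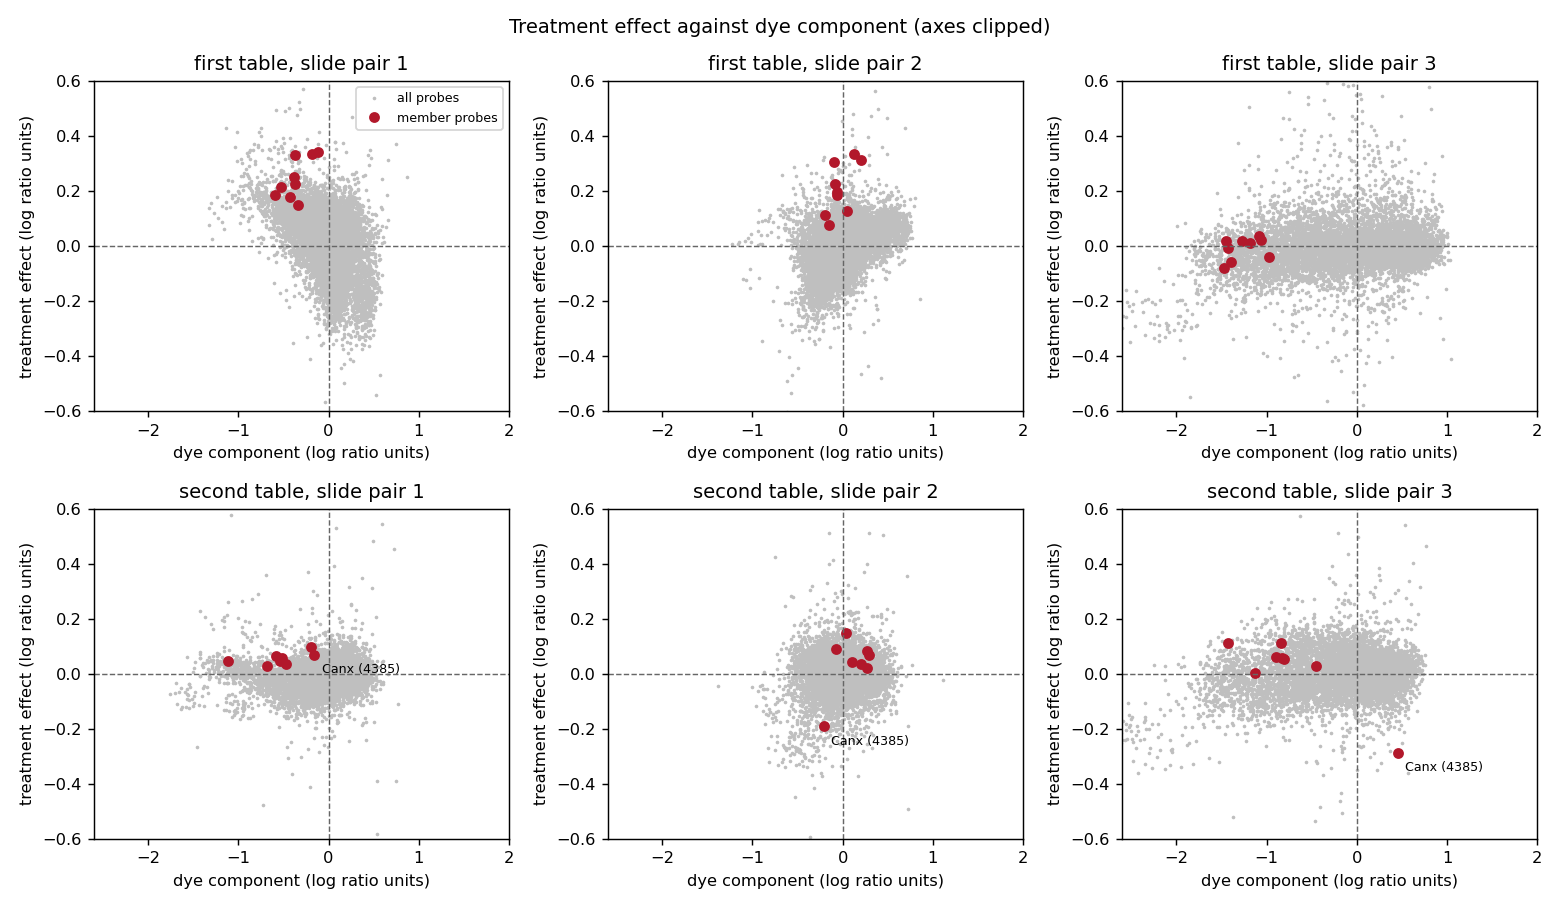
Treatment effect (vertical axis) against dye component (horizontal axis), both in log ratio units, for all 7680 probes (grey) and member probes (red) of each slide pair; the first table is on top. Axes are clipped and leave out 3 to 23 probes a panel. The Hspa5 probes 5361 and 5754 and the Calr probe lie at the upper edge of the cloud in first-table pairs 1 and 2. In first-table pair 3 the 9 members lie between effects of -0.0797 and 0.0352.

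The lists of other endoplasmic reticulum genes had medians between 0.0013 and 0.0524, and no gene on these 5 lists passed the test. In the first table the effect was positive for 51% of all genes, positive in all 3 pairs for 13.4% and negative in all 3 pairs for 10.2%. In the second table these shares were 46%, 9.72% and 16.2%. Of other folding factors 7 of 10 measured genes in the first table were positive (0 in all 3 pairs; median 0.0273), and 10 of 15 in the second (4 in all 3 pairs; median 0.0306). Dnajb9 (ERdj4), a co-chaperone, had a mean of 0.0783 ± 0.0388 (SD, n = 3) in the second table but -0.0612 ± 0.248 in the first. Serpinh1 (HSP47), the collagen chaperone, had 0.157 ± 0.0328 in the second table, with effects of 0.141, 0.135 and 0.195, and an adjusted p of 0.673. Calu, a calcium-binding protein of the secretory pathway, and Dnajc3 (P58IPK), a co-chaperone, had 0.0562 ± 0.0369 and 0.0522 ± 0.0432 there, and Dnajc3 had 0.0622 ± 0.0944 in the first table.

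Genes of N-glycan processing were positive in 9 of 9 cases in the first table (6 in all 3 pairs; median 0.0524), and in 5 of 7 in the second (1 in all 3 pairs; median 0.0013). Ganab, a glucosidase II subunit that trims glycans for calnexin and calreticulin, had 0.128 ± 0.124 (SD, n = 3) and Rpn1, an oligosaccharyltransferase subunit, 0.0828 ± 0.0395 in the first table. The lowest means among the 6 genes positive in all 3 pairs were those of Stt3a, a catalytic subunit of oligosaccharyltransferase, at 0.0431 ± 0.0318, and Prkcsh, the other glucosidase II subunit, at 0.0479 ± 0.0090. Dad1, also of the oligosaccharyltransferase, had 0.0260 ± 0.0201 in the second.

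Translocation genes were positive in 12 of 15 cases in the first table (4 in all 3 pairs; median 0.0253) and in 6 of 11 in the second (2 in all 3 pairs; median 0.0077). Ssr2, a subunit of the translocon-associated protein complex, was positive in both tables, at 0.119 ± 0.0729 and 0.0457 ± 0.0266 (SD, n = 3 each). Srprb, of the signal recognition particle receptor, had 0.119 ± 0.0701 in the first table and Sec62 0.0729 ± 0.0238 in the second. Sec61a1, the channel subunit of the translocon, and Srp72, of the signal recognition particle, had 0.0559 ± 0.0753 and 0.0348 ± 0.0299 in the first. Ssr1 and Spcs2 were negative in all 3 pairs of the second table, at -0.0680 ± 0.0840 and -0.0442 ± 0.0582.

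Degradation genes were positive in 6 of 9 cases in the first table (0 in all 3 pairs; median 0.0285) and in 7 of 11 in the second (1 in all 3 pairs; median 0.0183). In the second table the ubiquitin-conjugating enzymes Ube2g2 and Ube2j2 had 0.145 ± 0.157 and -0.0352 ± 0.0227 (SD, n = 3 each). The last list held sensors and transcription factors of the unfolded protein response and targets of the transcription factor ATF4. Its genes were positive in 8 of 9 cases in the first table (3 in all 3 pairs, median 0.0483). In the second they were positive in 8 of 12 (1 in all 3 pairs, median 0.0158). The tRNA synthetase Sars had 0.126 ± 0.0267 in the first table and a value near 0, 0.0030 ± 0.0821, in the second, and Wars had 0.0534 ± 0.0168 in the first. The sensor Ern1 averaged 0.0483 ± 0.0123 on first-table and -0.0092 ± 0.0418 on second-table probes. Of the transcription factors, Creb3l2 had 0.0386 ± 0.0445 and Atf6b -0.0270 ± 0.0189 in the second table.

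**Figure D4:**
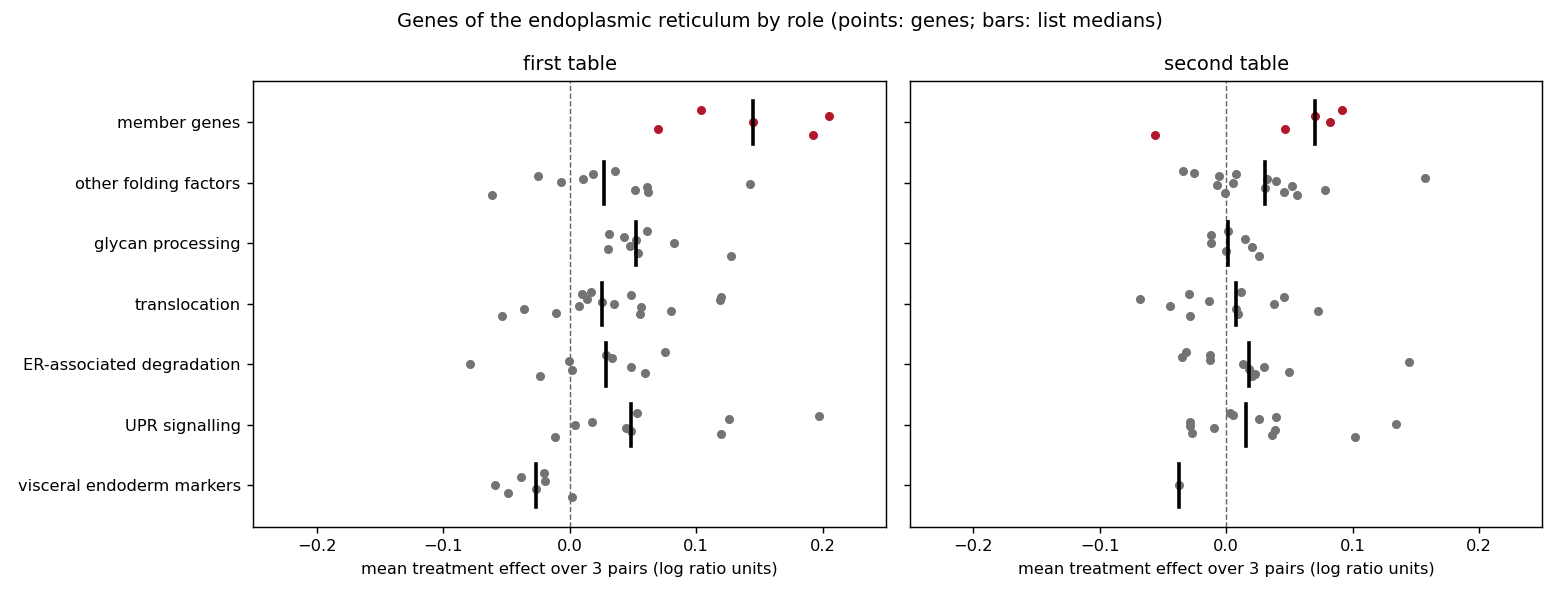
Mean treatment effect over 3 slide pairs (log ratio units, horizontal axis) of single genes (points) and list medians (bars) for member genes (red) and other lists (grey), first table left and second right. The member medians, 0.145 and 0.0701, are the highest of the lists drawn.

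Visceral endoderm of the yolk sac is a secretory tissue rich in endoplasmic reticulum. Of its markers 1 of 7 measured in the first table was positive (median -0.0265, range -0.0589 to 0.0020), and the only one in the second, Lrp2, had -0.0374. The member and marker medians thus lay on opposite sides of 0. Markers of primitive erythroid cells were positive in 0 of 1 and 0 of 3 cases in the 2 tables, those of parietal endoderm in 4 of 6 and 2 of 5, those of neural tube in 2 of 2 and 1 of 1, those of somite and heart in 0 of 1 and 1 of 1, and those of trophoblast and decidua in 2 of 4 in the first. The part of tissue composition in the member effects was not tested.

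Likeness of pattern was described by Pearson's r over 6 values, the 3 pairs by the 2 arrays of a slide, to the mean of the member probes. In the first table the nearest genes were Rap1b, a small GTPase (0.998), Mapk1ip1l (0.995) and Actr1a, a dynactin subunit (0.994), and their own mean effects were -0.0039, 0.0163 and 0.0547. In the second they were Sltm (0.991), Hdgf (0.989) and Prxl2a (0.977), with mean effects of -0.0010, -0.0428 and -0.0499. Hdgf and Prxl2a were negative in all 3 pairs. The second-table mean included Canx probe 4385, whose effects of 0.0694, -0.192 and -0.288 had the largest SD of its members, 0.185. Likeness to this mean is therefore not likeness to the other members. Single members of the first table correlated with the other members at 0.871 to 0.993, but those of the second at only -0.296 to 0.494. The 6 values come from 3 slide pairs, and the member probes share these slides.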

How the data were processed

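Mouse embryo RNA was measured on 24 arrays with 2 channels. The deposited values have the unit score here. They are log ratios of unstated base, judged from the values, since the labels name no base, background correction or normalization. Base 10 was set aside because the highest value, 7.71, exceeds 4.82, the log10 of a 16-bit range. That limit holds for ratios of raw signals, so base 10 is not excluded for corrected or scaled signals. Scanner settings and signal strength are not given in these sources. Each array was centred on its median, the 2 arrays of a slide were averaged, and the effect of each slide pair was tested against 0 in each table with limma 3.58.1 (lmFit, eBayes) in R 4.3.3, over all 7680 probes, with Benjamini-Hochberg adjustment at 0.05; no filter was applied. The slide pair, which the titles give, is part of this design. Of first-table probes 4749 had 1 gene symbol, 227 several and 2704 none (in the second, 4935, 275 and 2470). Probes of a gene were averaged for lists. The genes named from a list are those with the 2 highest and the 2 lowest mean effects among genes of 1 sign in all 3 pairs. Members and lists were chosen with earlier results of these data known.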

Additional observations from a re-analysis of the deposited data

How the results depend on the processing

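The counts of member probes past the threshold, 0 and 0, and the directions of all 17 probes were kept with arrays scaled, with the first or the second array of each slide alone, and with the dye trend removed by lowess (span 0.667, chosen after seeing the data). Without the slide pair as a block (no replicate block) the counts were also 0 and 0 and the member medians 0.1548 and 0.0514. The second-table median, 0.0514, was 0.0527 with arrays scaled, 0.0529 and 0.0593 on first and second arrays, and 0.0618 without the dye trend. Leaving out each slide pair in turn gave counts of 0 to 2 and 0 to 1, medians of 0.1061 to 0.2239 and 0.0495 to 0.0547, and -0.0008 to 0.1278 for Canx 4371; the first-table count of 2 is without pair 3 and the second-table count of 1 is without pair 1.

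With values as deposited, not centred, the medians were 0.0310 and -0.0014, where all probes had -0.1285 and -0.0543, and these effects turned: Canx 4371 at -0.0652, Canx 5602 at -0.0430, Pdia4 5476 at -0.0199, Canx 6792 at -0.0288, P4hb 3210 at -0.0100, P4hb 7049 at -0.0033. On slides with treated RNA in channel 2 only, the medians were 0.7403 and 0.4276 and 7 first-table members passed. With the channel 1 orientation alone 0 first-table members passed, when 174 of all probes did. On slides with treated RNA in channel 1 only the medians were -0.3837 and -0.3127, and these effects turned: Hspa5 231 at -0.3750, Hspa5 5361 at -0.1854, Hspa5 5754 at -0.1029, Calr 5509 at -0.3837, Canx 4371 at -0.6231, Canx 5602 at -0.6488, Hsp90b1 918 at -0.4853, Hsp90b1 950 at -0.4752, Pdia4 5476 at -0.3544, Canx 6792 at -0.5480, Pdia3 5028 at -0.7885, Pdia6 3820 at -0.2854, Pdia6 4491 at -0.2992, P4hb 3210 at -0.3444, P4hb 7049 at -0.3262, Xbp1 2404 at -0.1107. Without the turn of the swapped slides the medians were -0.5760 and -0.3809, and all 17 turned: Hspa5 231 at -0.5354, Hspa5 5361 at -0.4136, Hspa5 5754 at -0.3285, Calr 5509 at -0.5760, Canx 4371 at -0.6817, Canx 5602 at -0.7296, Hsp90b1 918 at -0.6208, Hsp90b1 950 at -0.6301, Pdia4 5476 at -0.4583, Canx 4385 at 0.0288, Canx 6792 at -0.5721, Pdia3 5028 at -0.8707, Pdia6 3820 at -0.3387, Pdia6 4491 at -0.3861, P4hb 3210 at -0.3872, P4hb 7049 at -0.3757, Xbp1 2404 at -0.2021. Without that turn 0 members passed the limma test in either table, when 219 of all first-table probes and 0 of all second-table probes did. The readings of a single orientation and without the turn keep the dye component in the values. The sign of the members therefore holds only if the swap had not been undone before deposit. Reading it as more or less RNA also needs channel 1 as the numerator. Before centring, array medians were positive in both orientations in the second table (0.272 to 2.1) and in first-table pairs 1 and 3. In first-table pair 2 they were -0.139 and -0.305 with treated RNA in channel 1, and 0.0332 and -0.0838 in channel 2. Whether slides had been turned was not tested. Signal over background is unknown, and 3 pairs a table limit precision.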
